A study of Mus musculus with 8 samples.

Results

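MicroRNA gene rows are the entries of the expression table that carry a microRNA gene's symbol and cover its hairpin, the short folded stretch of a longer transcript from which the mature microRNA is cut. Rows were taken whose symbol starts with Mir and a digit, or with Mirlet, without a host-gene suffix, and whose RPKM (reads on a row, scaled to its length and to the library's total on genes) was above 0 in at least 4 of the 8 libraries. This rule kept 201 of the 644 microRNA gene rows in a table of 27179 rows. Another 355 rows were at 0 in all 8 libraries, and 88 were above 0 in 1 to 3. Of the 201 rows, 107 were above 0 in all 8 libraries.

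The RNA came from CD4+ T cells of the spleen of 8-week-old C.Cg-Foxp3tm2Tch/J mice, so that every group carried the same Foxp3 allele. The parents had drunk water with 10 ppm CdCl2 (Cd offspring) or unspiked water (control, Ctr). This began before mating and went on while they were mated and, for the mothers, through gestation. All water was plain from the birth of the pups. Cells were enriched by negative selection, for RNA sequencing also by a FACS sort. The paper describes the sequenced cells of control offspring as conventional CD4+ T cells negative for CD25. Cells were either lysed at once, without culture (Unstim), or cultured for 16 h with anti-CD3/CD28 beads (Stim). What is called stimulation here thus joins the beads and 16 h of culture, which cannot be told apart. Each of the 4 groups (Ctr Unstim, Ctr Stim, Cd Unstim, Cd Stim) held 2 libraries, replicates 6 and 7. The labels do not say which litter or animal gave each library, so p-values measure only the spread between these libraries. Bulk RNA was sequenced, in which fewer cells of a type and less RNA per cell cannot be told apart.

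A microRNA is made from a long primary transcript, which is often an intron of a protein-coding gene or an exon of a non-coding host RNA. The nuclear enzyme Drosha, with its partner Dgcr8, cuts the hairpin out, Exportin-5 carries it to the cytoplasm, and Dicer trims it to the mature strand that Argonaute proteins hold. Bases in the seed, near the 5′ end of the mature strand, pair with target mRNAs. In T cells miR-155 is known for its induction on activation, miR-146a for restraining NF-kB signalling, and miR-142 for its abundance in blood cells. The libraries were made from polyadenylated RNA, which does not target RNAs as short as a mature microRNA. Reads on these rows can thus stem from primary transcripts, unspliced introns or host exons, and which of these gave a read was not tested.

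The libraries held 15542732 to 25486791 reads on genes, with the Cd libraries deeper than the control libraries of the same state. All 10 markers of CD4 T cells were present (Cd4 at 212 to 315 RPKM), while Ms4a1 and Cd14, which mark B cells and monocytes, were at 0 in every library. The B cell gene Cd79a was at 2.87 to 4.73 RPKM and the regulatory T cell gene Foxp3 at 4.48 to 7.69 RPKM. Of the CD8 T cell genes, Cd8b1 was at 9.4 to 11.7 RPKM and Cd8a at 0.0581 to 0.16 RPKM. The summed level of the 4 myeloid markers was 1.87 to 2.03 RPKM in unstimulated and 0.38 to 0.582 RPKM in stimulated libraries. That of the 2 natural killer markers was 3.15 to 4.35 and 0.147 to 0.293 RPKM. In unstimulated libraries these sums rested mostly on 1 gene each. Itgam had a mean of 1.8 RPKM in Ctr Unstim and 0.295 in Ctr Stim, and Klrb1c 4.32 and 0.22, while Lyz2 and Ncr1 were at most 0.0487 and 0.0311 RPKM. Their part in the differences between unstimulated and stimulated cells was not tested.

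The rows were short, from 57 to 133 nt with a median of 86 nt, and most held few reads. Whole reads could be recovered from the deposited values. The mean over libraries was 4.25 reads for the median row, 0.5 for the lowest and 10343 for the highest, and 88 rows reached at least 5. By GENCODE M21, 104 rows lay in an intron of a gene on the same strand, 37 in an exon of a non-coding transcript, 14 in a UTR exon and 8 in a coding exon. A further 21 lay only within a gene on the opposite strand, 20 of them in an intron, and 17 lay in no annotated gene. The strand setting of the read counting is not given in the sources used here, so reads of 2 genes that overlap on opposite strands cannot be told apart. Where a row lies in a host exon, reads may be shared with the host's own row.

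Mature sequences of the rows that the results turn on are shown first, with the seed (bases 2 to 8) in capitals. They are from RefSeq (GRCm38.p6), which gave a mature or hairpin sequence for 176 of the 201 rows. The first set holds rows with higher levels after stimulation.
miR-155-5p: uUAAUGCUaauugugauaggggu
miR-146a-5p: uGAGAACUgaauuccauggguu
miR-34a-5p: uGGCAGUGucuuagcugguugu
miR-142a-5p: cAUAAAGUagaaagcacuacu
miR-142a-3p: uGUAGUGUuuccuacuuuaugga
miR-5104: cUGUGCUAgugagguggcucagca
miR-186-5p: cAAAGAAUucuccuuuugggcu
miR-363-3p: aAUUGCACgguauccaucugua
miR-25-3p: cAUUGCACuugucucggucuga
The last pair share the seed AUUGCAC although their genes lie on chromosomes X and 5.

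The next set belongs to rows in introns whose levels were lower after stimulation. None of these 5 shares its seed with another.
miR-7a-5p: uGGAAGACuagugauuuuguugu
miR-1938: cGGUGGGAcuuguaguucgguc
miR-1904: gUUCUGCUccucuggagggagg
miR-3058-5p: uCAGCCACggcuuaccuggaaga
miR-5123: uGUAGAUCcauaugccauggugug

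Some rows at different places in the genome share a seed and so form families. The let-7 seed was held by 8 rows, of which 3 are shown beside 2 of the 4 rows with the miR-17 seed.
let-7a-5p: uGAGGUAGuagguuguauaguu
let-7d-5p: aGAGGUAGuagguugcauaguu
miR-98-5p: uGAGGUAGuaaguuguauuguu
miR-17-5p: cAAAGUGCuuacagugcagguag
miR-106b-5p: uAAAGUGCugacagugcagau
In all, the 172 rows with a mature sequence that could be printed here held 237 seeds, of which 24 occurred in 2 or more rows.

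For 3 rows the whole counted stretch is shown, since it is the unit in which reads were assigned, with the mature strands in capitals. Mir155 lies in an exon of the non-coding RNA Mir155hg at chr16:84714140-84714204 on the plus strand. Mir3971 lies in an intron of Slc43a2 at chr11:75551429-75551511, plus strand, and Mir5119 in an intron of Cdk12 at chr11:98262606-98262662, plus strand (all GRCm38).
Mir155: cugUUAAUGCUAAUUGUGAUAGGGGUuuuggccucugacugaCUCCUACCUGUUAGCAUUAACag
Mir3971: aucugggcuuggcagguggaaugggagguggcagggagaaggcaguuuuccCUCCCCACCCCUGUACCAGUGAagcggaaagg
Mir5119: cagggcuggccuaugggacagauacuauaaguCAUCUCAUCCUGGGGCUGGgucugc

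Levels per length spanned several orders of magnitude, from a mean of 0.289 to 5541 RPKM with a median of 2.33 RPKM. Mir682 stood at the top with 73.7% to 82.3% of all reads on the 201 rows. It lies in Gm4149, a processed pseudogene, so its reads may be split with near-identical copies and its level is uncertain. Mir142 followed at a mean of 620 RPKM, then Mir3064 in a coding exon of Ddx5 at 295 RPKM and Mir5125 in an intron of the splicing factor gene Srrm2 at 162 RPKM. Mir703 came next at 79.5 RPKM. Its replicates differed widely, with 41 and 247 reads in the Cd Unstim libraries and 234 and 87 in the Ctr Unstim libraries. These 5 rows were also the 5 with a mean of at least 100 reads.

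After stimulation a small set of rows was higher and another lower. Changes were tested with limma on log2(RPKM + 0.1) over the 12605 rows with a mean of at least 0.5 RPKM, which included 181 of the 201 microRNA rows. A row was called where the adjusted p was under 0.01 and the change more than 2-fold. Averaged over both exposures, 27 of the 181 rows were called, 12 higher and 15 lower, which is 14.9% against 18.9% of all rows tested. The 12 include Mir34a, which entered the 201 rows only through its stimulated libraries. In control offspring 18 were called (8 higher, 10 lower; 18.7% of all rows), and in Cd offspring 22 (6 higher, 16 lower; 18.8% of all rows). Only 3 of the 18 and 4 of the 22 held under all 20 alternatives run. A group without any read entered 6 of the 18 calls and 3 of the 22. Against a floor of 3 reads over the group, the bounds of those 6 ran from 1.36-fold (Mir5110) to 2.61-fold (Mir1249 and Mir1934). Those of Mir5110, Mir34a, Mir101b and Mir146 were under 2-fold. The median log2 fold change of the microRNA rows was 0.23 in control offspring (105 rows above 0, 76 below) and -0.29 in Cd offspring (72 above, 109 below), beside 0.070 and 0.050 over all rows. Averaged over exposures it was 0.02, beside 0.058. Among the 778 rows of any kind with a mean under 20 reads 163 were called, and among the 159 microRNA rows of that depth 22 were.

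Mir155 had the steepest fitted rise. It held 4 and 0 reads in Ctr Unstim, 51 and 57 in Ctr Stim, 2 and 3 in Cd Unstim, and 51 and 62 in Cd Stim. The 4 stimulated libraries lay far above the 4 unstimulated ones, at 35.7 to 50.5 RPKM against 0 to 3.42. The log2 fold change was 5.27 ± 0.79 (SE; limma, adjusted p = 5.29e-05) averaged over exposures. The response was 6.33 ± 1.12 with control and 4.20 ± 1.12 with Cd parents. Ctr Unstim replicate 7 had 0 reads and enters the fit at the pseudocount of 0.1 RPKM, where 1 read on a row of 80 nt would be 0.767 RPKM. The size of the control response, and of its gap to the Cd response, thus depends on the pseudocount. The difference between the responses of control and Cd offspring did not pass (-2.13 ± 1.59, adjusted p = 0.62). Its host Mir155hg is not analysed here, since the table used has no row for it.

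Mir1949, in an exon of a non-coding transcript that overlaps Snhg4, held 4 and 12 reads in Ctr Unstim, 45 and 73 in Ctr Stim, 2 and 6 in Cd Unstim, and 51 and 72 in Cd Stim. Groups did not overlap between states, and the row rose by 3.41 ± 0.39 on the log2 scale (adjusted p = 4.49e-06). Snhg4, a host RNA for small nucleolar RNAs, rose by 2.54 ± 0.08 (adjusted p = 1.2e-11). Both changes were called in either exposure and that of Mir1949 held under all alternatives run.

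Mir5104 in an intron of Zc3h12d, which encodes a Regnase-family RNA-binding protein, rose by 1.83 ± 0.34 (adjusted p = 0.000352). Its reads were 3 and 8 in Ctr Unstim, 17 and 19 in Ctr Stim, 6 and 9 in Cd Unstim, and 31 and 33 in Cd Stim, with no overlap between states. Zc3h12d itself rose by 1.46 ± 0.04 (adjusted p = 1.09e-11). Mir186 in an intron of the RNA-binding protein gene Zranb2 rose by 1.01 ± 0.23 (adjusted p = 0.00156), near the host's 1.08 ± 0.04. Its call lay at the edge of the 2-fold rule and was lost when Ctr Unstim replicate 7 or Cd Unstim replicate 6 was left out, and under both other scalings.

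Several rows that rose had almost no reads before stimulation. Mir34a, a known target gene of p53 that lies in no annotated gene, had no read in any unstimulated library, 2 and 3 in Ctr Stim and 2 and 7 in Cd Stim. That is at least 4.2-fold higher against a floor of 3 reads over the group. It was the 1 row above 0 in the 4 stimulated libraries alone. Mir34a thus met the rule for these rows only through the libraries in which it is high. Its call, here and on the T cell list, is not independent of that rule. Mir146, the gene of miR-146a, had 0 and 0 reads in Ctr Unstim, 3 and 3 in Ctr Stim, 0 and 1 in Cd Unstim, and 6 and 5 in Cd Stim. Pooled over exposures it was 15.3-fold higher, with a 95% counting interval of 2.4 to 640. Mir363, a member of an X-linked cluster, was 10.8-fold higher (2.68 to 94.3) with 2 reads in all before and 24 after stimulation. Mir30b was 7.5-fold (2.29 to 38.8) and Mir16-1 6.6-fold (1.98 to 34.5) higher, each from 3 reads. Intervals cover counting error only. The calls of Mir363, Mir30b and Mir16-1 were each lost without Ctr Stim replicate 6. Those of Mir30b and Mir16-1 were also lost without either Cd Stim library, and that of Mir16-1 without Ctr Unstim replicate 7 or Cd Unstim replicate 7.

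**Figure D1:**
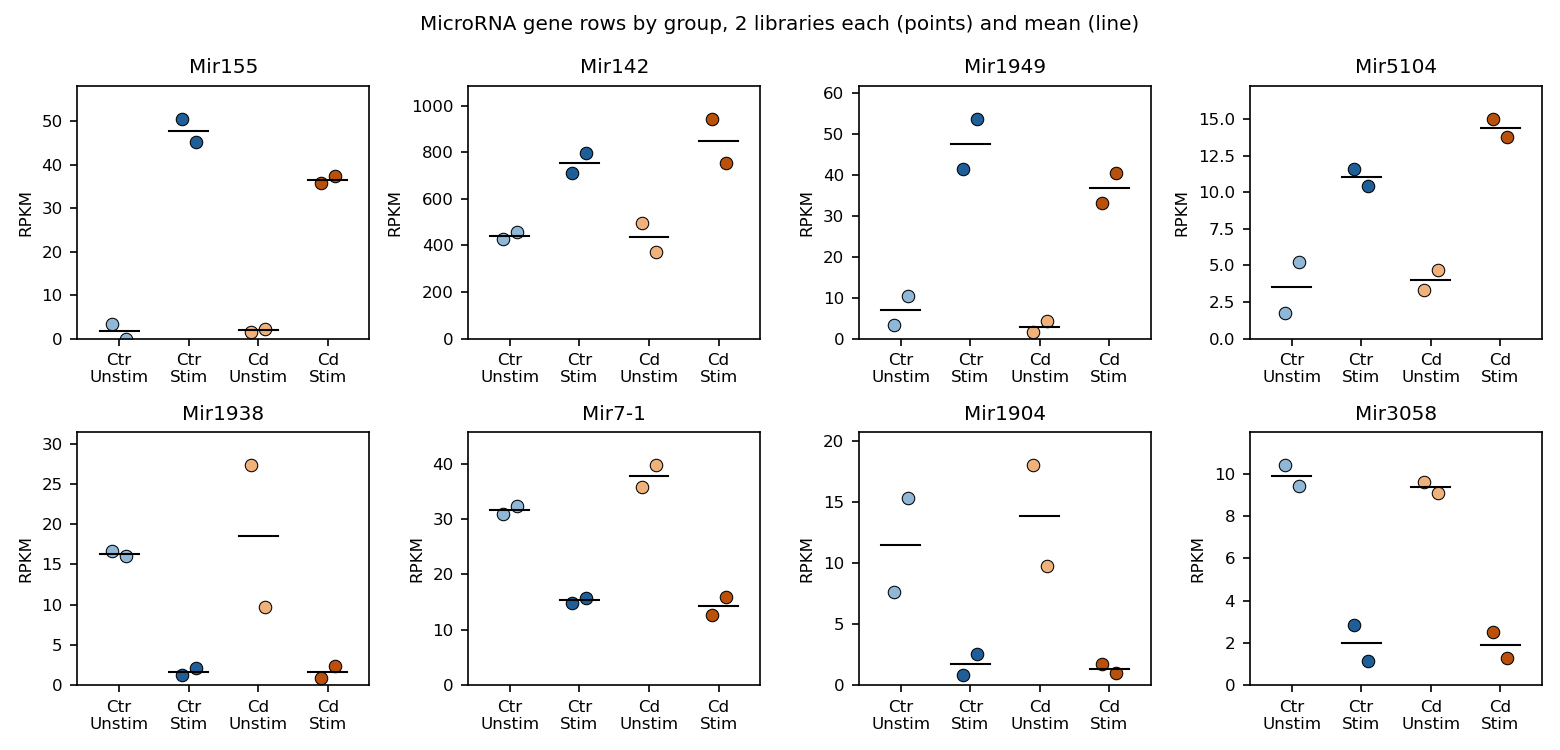
RPKM (vertical axes, linear, from 0) of 8 microRNA gene rows in the 4 groups, with 1 point per library and a line at the mean of 2. Mir155, Mir142, Mir1949 and Mir5104 lay higher in the stimulated libraries, and Mir1938, Mir7-1, Mir1904 and Mir3058 lower, without overlap between states.

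Mir142 is among the rows with the most reads, and its change was precise but under 2-fold. Its level was 443 ± 20.5 RPKM in Ctr Unstim and 756 ± 61.9 in Ctr Stim, and 434 ± 86.9 in Cd Unstim and 849 ± 134 in Cd Stim (SD, n = 2 each). The log2 fold change was 0.87 ± 0.09 (adjusted p = 2.16e-06). All 4 stimulated libraries lay above the 4 unstimulated ones. Mir5125 had a log2 fold change of 0.55 ± 0.11 (adjusted p = 0.000463), beside 0.14 ± 0.04 for its host Srrm2. Mir3064 had -0.72 ± 0.11 (adjusted p = 4.85e-05), close to the -0.80 ± 0.04 of Ddx5, whose coding exon it occupies. Mir682 had -0.35 ± 0.04 (adjusted p = 2.66e-06).

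The rows that fell lay mostly in introns: 12 of the 15 were in a same-strand intron, as were 93 of the 181 rows tested. Of these 12, the calls of Mir1927, Mir326, Mir505 and Mir721 were lost when 1 library was left out. Mir1938 in an intron of Ifrd1, a transcriptional regulator, fell by 3.31 on the log2 scale (SE 0.41, adjusted p = 8.16e-06). It held 30 and 26 reads in Ctr Unstim, 2 and 4 in Ctr Stim, 53 and 20 in Cd Unstim, and 2 and 6 in Cd Stim. Its stimulated libraries were all below its unstimulated ones. Gm7008 overlaps the row on the other strand. Ifrd1 had a log2 fold change of -0.62 ± 0.07, under the 2-fold rule.

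Mir7-1, the gene of one copy of miR-7a, lies in an intron of Hnrnpk, an abundant RNA-binding protein gene. It had 60 and 57 reads in Ctr Unstim, 25 and 33 in Ctr Stim, 75 and 88 in Cd Unstim, and 30 and 44 in Cd Stim. States did not overlap, and the row fell by 1.22 on the log2 scale (SE 0.15, adjusted p = 8.14e-06). Hnrnpk moved the other way, with a log2 fold change of 0.31 ± 0.05 (adjusted p = 4.91e-05). The row's call held in control and in Cd offspring and under every alternative run.

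Mir1904 in an intron of the phosphodiesterase gene Pde4d fell by 3.04 on the log2 scale (SE 0.46, adjusted p = 5.81e-05), beside -0.86 ± 0.06 for Pde4d. Its reads were 11 and 20 in Ctr Unstim, 1 and 4 in Ctr Stim, 28 and 16 in Cd Unstim, and 3 and 2 in Cd Stim. Mir3058 in an intron of Nudt4, which encodes a polyphosphate phosphatase, fell by 2.36 on the log2 scale (SE 0.39, adjusted p = 0.000122), from 14 to 17 reads in each unstimulated library to 2 to 5 in each stimulated one. Nudt4 had a log2 fold change of 0.26 ± 0.05. Mir5123 in B4galt1, a galactosyltransferase gene, fell by 1.51 (SE 0.28, adjusted p = 0.000276), beside -0.11 ± 0.04 for the host. Mir1192 in the transcription factor gene Klf9 fell by 2.33 (SE 0.44, adjusted p = 0.000364), beside 0.54 ± 0.12 for Klf9.

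Further rows that fell lay in hosts whose own changes varied. Mir709 fell by 1.60 on the log2 scale (SE 0.33, adjusted p = 0.000655), and its host Rfx1, a transcription factor gene, fell by 1.38 (SE 0.07). Mir1960 fell by 2.10 (SE 0.38) in Hadhb, a gene of fatty acid oxidation, whose log2 fold change was -0.88 ± 0.06. Mir3473c, in an exon of a non-coding transcript of the signalling adaptor gene Traf5, fell by 1.42 (SE 0.33), beside -0.94 ± 0.05 for Traf5. Mir199a-1 lies opposite an intron of Dnm2, a dynamin gene. It fell by 1.34 (SE 0.23, adjusted p = 0.000142), beside -0.81 ± 0.05 for Dnm2. Mir1927, in Rabgap1l, fell by 2.80 (SE 0.69), beside -0.31 ± 0.06 for the host, a call lost without either Ctr Unstim library. This row had no read in Ctr Stim replicate 6, so the size of its fall depends on the pseudocount. Mir3061, in a UTR exon of the phosphatase gene Ppp2ca, fell in Cd offspring by 1.21 (SE 0.23, adjusted p = 0.000527), beside 0.21 ± 0.05 for Ppp2ca.

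Without any test, 16 of the 181 rows (8.84%) had all 4 stimulated above all 4 unstimulated libraries, beside 38.0% of all rows. The reverse held for 25 (13.8%), beside 30.0% of all rows. The shares of the microRNA rows were thus below those of all rows in both directions. The spread of the fitted changes widened as reads became fewer. Of the 27 calls averaged over exposures, 15 held under all 19 alternatives and the other 12 were lost when 1 library was left out. These 12 were Mir16-1, Mir186, Mir1900, Mir1927, Mir1932, Mir301b, Mir3079, Mir30b, Mir326, Mir363, Mir505 and Mir721.

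**Figure D2:**
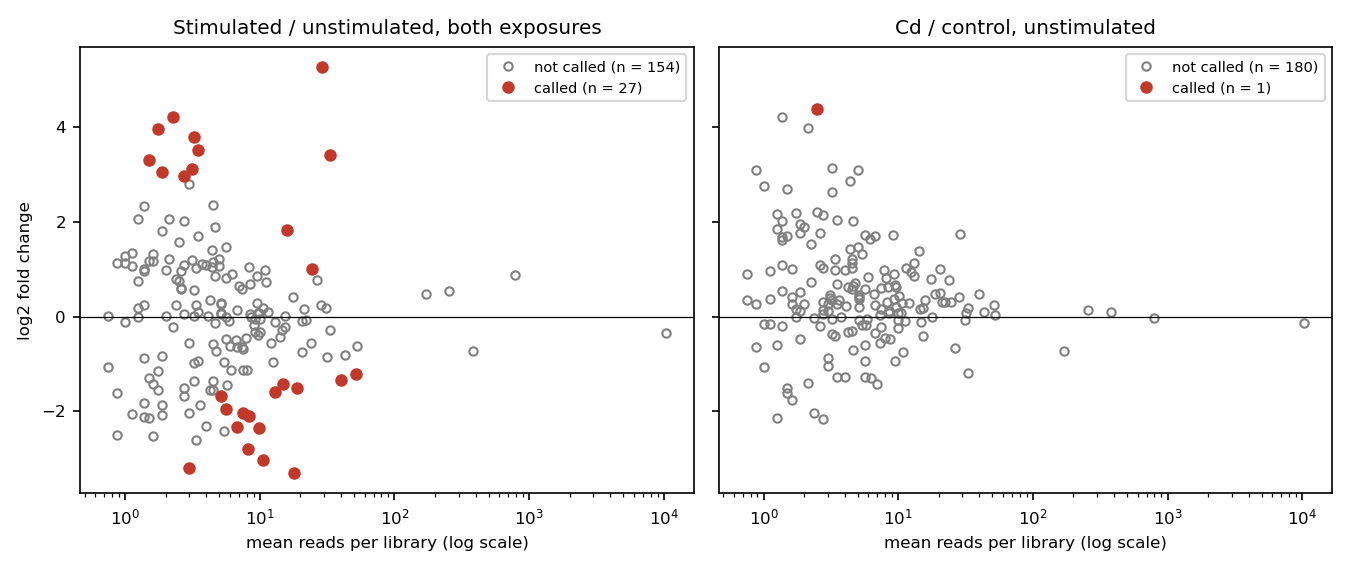
Log2 fold change (vertical axis) against mean reads per library (log scale) for the 181 tested rows, for stimulation averaged over exposures (left) and for Cd against control in unstimulated cells (right), with called rows in red. Calls numbered 27 on the left and 1 on the right, and the scatter narrows from left to right within each panel.

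Families with known roles in T cells were followed by a list of 103 names, of which 54 were among the 201 rows and 49 were tested. Averaged over exposures 5 were called higher (Mir155, Mir146, Mir34a, Mir16-1 and Mir30b) and 1 lower (Mir326), which is 12.2% beside 18.9% of all rows. The median log2 fold change was 0.41, beside 0.058 over all rows. By exposure it was 0.49 in control and 0.04 in Cd offspring, beside 0.070 and 0.050 over all rows. The Mir17 cluster, which drives lymphocyte expansion when in excess, lies in exons of Mir17hg. Mir17 held 7 to 12 reads in every library and its log2 fold change was 0.08 ± 0.31, and Mir20a had 0.05 ± 0.34 and Mir19a -0.65 ± 0.39. Mir17hg itself had 0.96 ± 0.06. In the related cluster within Mcm7, a gene of the replicative helicase, Mir25 had 0.99 ± 0.29 (adjusted p = 0.00724) against 1.18 ± 0.05 for Mcm7, with all stimulated above all unstimulated libraries. It was called in Cd offspring (1.40 ± 0.41, adjusted p = 0.00852), a call that was lost in 12 of the alternatives.

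The let-7 rows, whose mature strands restrain growth genes, were not called, and 6 of the 7 tested had fitted values below 0. Mirlet7b had a log2 fold change of -2.61 ± 0.83 (adjusted p = 0.012), Mirlet7a-1 of -1.44 ± 0.48 (adjusted p = 0.0151) and Mirlet7g of -1.37 ± 0.53 (adjusted p = 0.0331). Mirlet7d, in the same non-coding transcript as Mirlet7a-1, had -0.10 ± 0.26. Mirlet7c-2 had -0.73 ± 0.48, Mirlet7f-1 -0.49 ± 0.47 and Mirlet7i 0.28 ± 0.43. Mir98, which shares the let-7 seed, had 1.89 ± 0.75 (adjusted p = 0.0369). Mir30c-1 and Mir30e, both in introns of the transcription factor gene Nfyc, had -2.42 ± 0.76 and -1.12 ± 0.36 (adjusted p = 0.0118 and 0.0121). Mir30c-1 had no read in Ctr Stim replicate 6, so the size of its fitted change depends on the pseudocount. Mir150, abundant in resting lymphocytes as a mature RNA, held 2 to 15 reads per library and had 0.86 ± 0.48 (adjusted p = 0.122). The rows of the miR-181 family held 0 to 6 reads in any library, and those tested were not called.

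Rows and their hosts could be set side by side for 123 rows in 109 host genes, 86 of them in introns and 37 in exons. Per length, a row in an intron reached a median of 21.5% of its host's RPKM and a row in an exon 33.1%. All these rows had passed the filters on reads and level, so the medians do not cover microRNA rows with few or no reads. For stimulation averaged over exposures, the log2 fold changes of rows and hosts had a Pearson r of 0.43 and a Spearman rho of 0.42 across these 123 rows. Among the 62 rows with a mean of at least 5 reads r was 0.54. The points share libraries, and a host with several rows enters more than once, so no p is given. Signs were equal for 88 of the 123.

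**Figure D3:**
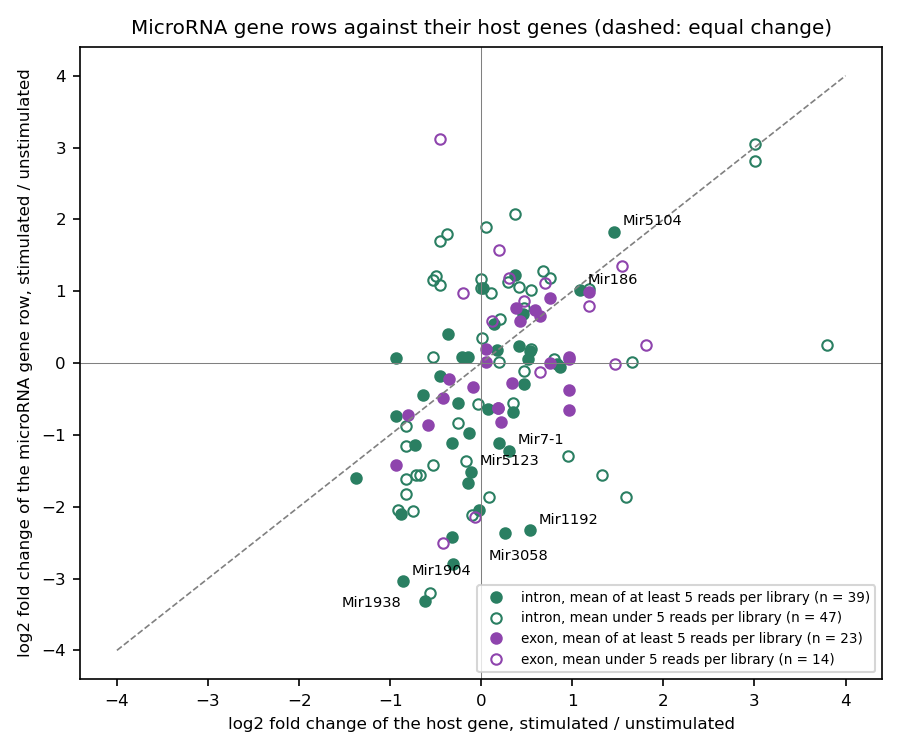
Log2 fold change after stimulation (averaged over exposures) of 123 microRNA gene rows (vertical axis) against that of their same-strand host gene (horizontal axis), filled for rows with a mean of at least 5 reads, green in introns and purple in exons. Mir5104 and Mir186 lay near the dashed line of equal change, and Mir1938, Mir7-1, Mir1904, Mir3058, Mir5123 and Mir1192 lay below it.

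The level of rows relative to their hosts was compared between states. Over the 39 intronic rows with a mean of at least 5 reads, the median of row RPKM as a percentage of host RPKM was 27.3% and 32.5% in Ctr Unstim and 18.6% and 20.5% in Ctr Stim. In Cd Unstim it was 37.7% and 39.2%, and in Cd Stim 21.1% and 17%. The 4 unstimulated medians lay above the 4 stimulated ones, and both Cd Unstim medians lay above both Ctr Unstim medians. Of the 39 rows, 26 were lower and 13 higher relative to their host after stimulation. By fitted changes this leaned one way in Cd offspring, with 8 rows above and 31 below their host (median difference -0.71). In control offspring 20 were above and 19 below (median difference 0.08). Over the 23 exonic rows the 8 medians ran from 26.7% to 47.9% and the groups overlapped. This ratio does not depend on how libraries are scaled to each other.

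Taken pair by pair, the ratio did not overlap between the 4 stimulated and 4 unstimulated libraries in 20 of these 62 pairs, and in all 20 it was lower after stimulation. Over all 123 pairs, which include these 62 and the rows of fewer reads, 22.8% did not overlap, counting either direction. Of the 20, 15 were intronic. Mir7-1 fell from 32.7% to 41.5% of Hnrnpk in unstimulated libraries to 10.7% to 13.7% in stimulated ones. Mir3058 went from 69.5% to 82.3% of Nudt4 to 7.55% to 18.6%. Mir1938 went from 20.1% to 43.2% of Ifrd1 to 2.79% to 6.73%. The exonic pairs of this kind were Mir17, Mir19a and Mir20a in Mir17hg, Mir1894 in Ppp1r10 and Mir3061 in Ppp2ca. Those in Mir17hg share that host and are not independent. These pairs were singled out after their values were seen, and no p is given.

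**Figure D4:**
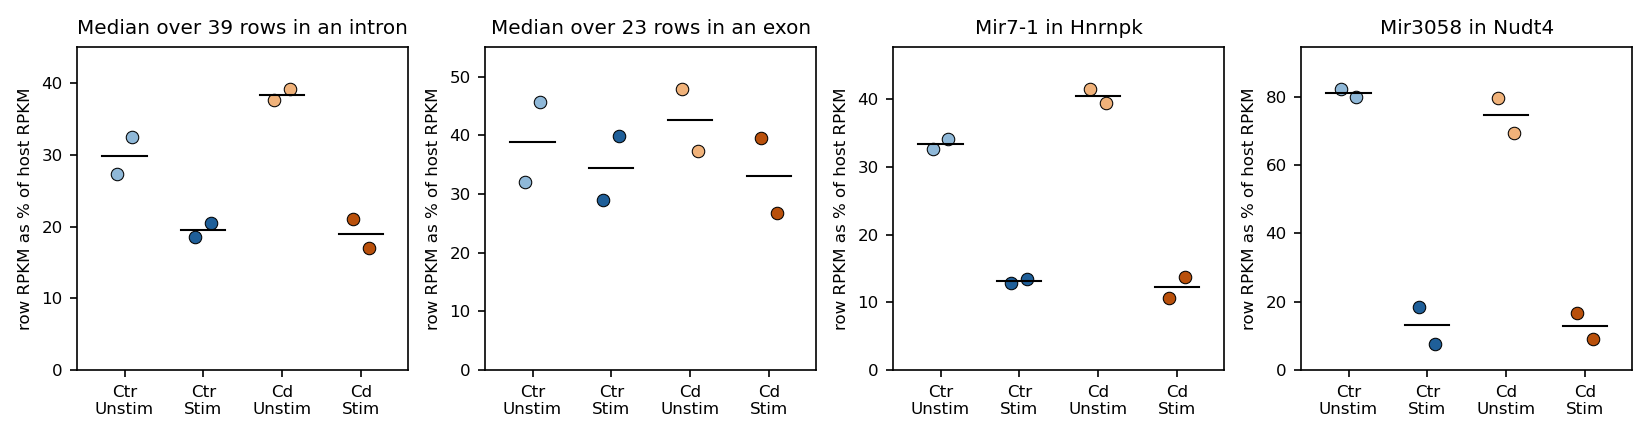
Row RPKM as a percentage of host RPKM (vertical axes, linear, from 0) by group, with 1 point per library and a line at the mean of 2, as the median over 39 intronic and 23 exonic rows and for Mir7-1 and Mir3058. Intronic medians were 27.3% to 39.2% in unstimulated and 17% to 21.1% in stimulated libraries, while exonic medians overlapped.

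Between Cd and control offspring, unstimulated cells showed 1 call among the 181 rows (0.552%), beside 1.47% of all rows (adjusted p under 0.05). It was Mir1249, in a non-coding exon of 5031439G07Rik, with 0 and 0 reads in Ctr Unstim and 3 and 5 in Cd Unstim. That is at least 2.29-fold higher against a floor of 3 reads over the group (limma, adjusted p = 0.0463). In stimulated cells the order was not kept, with 2 and 6 reads in Ctr Stim against 3 and 1 in Cd Stim. The call was lost in 15 of 19 alternatives, among them any library left out except Cd Unstim replicate 6, and with the replicate block. At an unadjusted p under 0.05 there were 17 rows (9.39%), beside 14.8% of all rows.

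Mir3971 in an intron of Slc43a2, an amino acid transporter gene, held 4 and 4 reads in Ctr Unstim, 5 and 8 in Ctr Stim, 12 and 21 in Cd Unstim, and 10 and 9 in Cd Stim. Both Cd Unstim libraries lay above both Ctr Unstim libraries, at 9.88 ± 3.45 against 2.82 ± 0.196 RPKM (SD, n = 2). The log2 fold change was 1.73 ± 0.48 and did not pass (adjusted p = 0.111). Slc43a2 had -0.15 ± 0.07 (adjusted p = 0.313). With a variance trend over RPKM in place of reads it passed, as it did with a pseudocount of 0.5 or 1 RPKM. Over the alternatives the adjusted p ran from 0.0219 to 0.392.

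Mir5119 in an intron of Cdk12, a kinase gene of transcript elongation, held 7 and 6 reads in Ctr Unstim, 8 and 13 in Ctr Stim, 17 and 14 in Cd Unstim, and 12 and 15 in Cd Stim. It was at 13.7 ± 2.4 RPKM in Cd Unstim and 6.64 ± 0.262 in Ctr Unstim (SD, n = 2), without overlap. The log2 fold change was 1.02 ± 0.40 (adjusted p = 0.264), beside 0.12 ± 0.05 for Cdk12. With the trend over RPKM the adjusted p was 0.0356, and over all alternatives it ran up to 0.521. After stimulation the 2 exposures differed little, at 10.4 ± 1.91 and 9.95 ± 0.531 RPKM.

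Other rows had a like pattern that did not pass either. Mir1955 in the chromatin gene Phf21a had 9 and 7 reads in Ctr Unstim and 17 and 35 in Cd Unstim (1.38 ± 0.43, adjusted p = 0.157), and 10 and 9 against 11 and 16 after stimulation. Mirlet7d had 13 and 12 against 31 and 28 (1.01 ± 0.36, adjusted p = 0.228), and 20 and 18 against 26 and 16 after stimulation. Mir1957a had 9 and 11 against 22 and 23 (0.95 ± 0.43, adjusted p = 0.329). After stimulation its order turned, with 10 and 12 in Ctr Stim against 8 and 5 in Cd Stim. Mir709 had 9 and 13 against 26 and 30 (1.13 ± 0.46, adjusted p = 0.287). Mir1955 and Mir709 were chosen after their values were seen. Other rows went the opposite way: of the 181 rows, 127 had fitted values above 0 and 54 below. Among rows with a mean of at least 5 reads, Mir1932, Mir5133 and Mir700 had the 3 largest decreases, and none was called. Mir5133 lay at 102% and 190% of the RPKM of its host Glce in Ctr Unstim and at 88% and 37.3% in Cd Unstim.

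**Figure D5:**
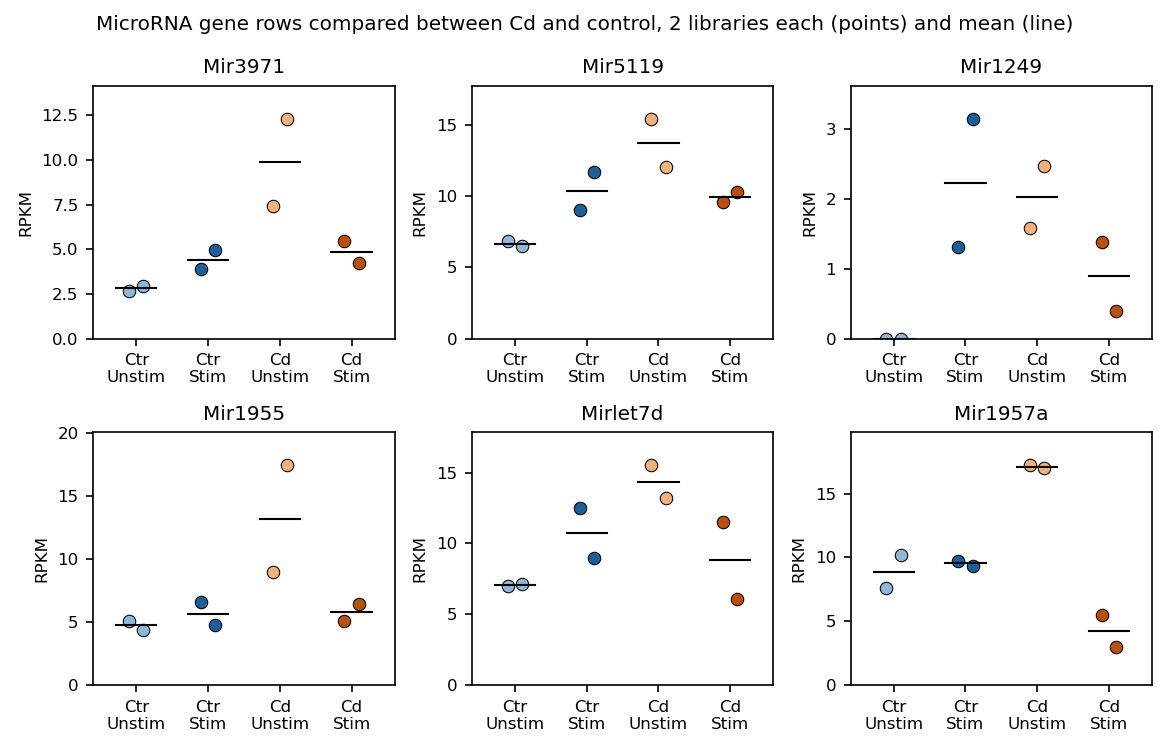
RPKM (vertical axes, linear, from 0) of 6 rows in the 4 groups, with 1 point per library and a line at the mean of 2. In each, both Cd Unstim libraries lay above both Ctr Unstim libraries, and 1 of the 6 differences, that of Mir1249, was called. The 6 rows were picked, and the share of all rows that separate in this way is not given. For 2 libraries against 2, the smallest p of an exact permutation test is 0.333.

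Counted row by row, the fitted changes leaned toward higher values in Cd Unstim. The median log2 fold change was 0.31 over the 181 rows and 0.23 over the 88 with a mean of at least 5 reads, beside 0.007 over all rows tested. With rows that have no read in 1 group set to their bound it was 0.30. By place, the median was 0.42 over the 93 tested rows in same-strand introns, of which 73 were above 0, and 0.39 over the 18 on the opposite strand. It was 0.09 over the 55 in same-strand exons. The hosts of the 86 intronic rows had a median of 0.05. The list was not tested as a set.

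Reads were summed over the 104 rows in same-strand introns and scaled to each library's total (RPM). The sums were 67.3 and 73 in Ctr Unstim, 84.1 and 96.3 in Ctr Stim, 87.3 and 75.4 in Cd Unstim, and 105 and 89.4 in Cd Stim. Mir142 and Mir5125 held a large part of these sums. Without them the sums were 29.7 and 34.1 in Ctr Unstim, 25.9 and 30.7 in Ctr Stim, 42.7 and 42.6 in Cd Unstim, and 27.6 and 24.6 in Cd Stim. The Cd Unstim libraries then lay above the other 6. For rows opposite a gene, without Mir703, the same sums were 6.89 and 7.67, 5.53 and 7.15, 10.1 and 9.74, and 6.46 and 5.77 in that order of groups. With Mir703 kept they overlapped, at 19.9 and 13 in Ctr Unstim and 12.2 and 21.8 in Cd Unstim. Exonic rows without Mir682 and Mir3064 overlapped, at 22.7 and 28.7 in Ctr Unstim and 27.6 and 24.6 in Cd Unstim. With both kept, exonic sums were lower in Cd Unstim, at 611 and 625 against 702 and 651. Over all 201 rows the sums were 792 and 741 in Ctr Unstim and 715 and 726 in Cd Unstim, again lower with Cd. Without the 5 rows with most reads they were 62.1 and 74.1 against 84.5 and 80.4. The Cd Unstim libraries had 19419451 and 20538306 reads on genes and the Ctr Unstim libraries 17985243 and 16299663, and the part of depth in these differences was not tested. With 2 libraries against 2 an exact permutation test cannot go below p = 0.333.

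In stimulated cells no row was called between Cd and control offspring, as in the whole table (0% of 12605 rows), by limma. At an unadjusted p under 0.05 there were 16 rows (8.84%), beside 3.21% of all rows, and the lowest adjusted p was 1. The median log2 fold change was -0.08 beside -0.009 over all rows. Mir18 of the Mir17 cluster had 4 and 3 reads in Ctr Stim and 19 and 14 in Cd Stim, without overlap, at 2.14 ± 0.759 against 7.36 ± 2.32 RPKM (SD, n = 2). Its neighbour Mir17 had 8.43 and 6.12 RPKM in Ctr Stim and 5.41 and 5.14 in Cd Stim, the other way round. Mir20a overlapped, at 4.81 and 3.84 against 3.4 and 4.4 RPKM. Over all 8 libraries, 1 row had all Cd above all control libraries (Mir421 in the non-coding RNA Ftx; 0.552%, beside 0.262% of all rows). The reverse held for 1 row (Mir5100 in Mief2; 0.552%, beside 0.341%). Neither was called in a comparison of the exposures.

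The difference in the stimulation response between Cd and control offspring was not called for any row by limma, beside 0.857% of all rows. At an unadjusted p under 0.05 there were 24 rows (13.3%), beside 11.6% of all rows, and the lowest adjusted p was 0.104, that of Mir1249. The median difference was -0.36 beside -0.014 over all rows. It was -0.62 over rows in same-strand introns, of which 65 of 93 were below 0, and -0.07 over rows in exons. Mir1957a had -2.16 ± 0.60 (adjusted p = 0.176) and Mir324, in a UTR exon of Dvl2, -3.55 ± 1.04 (adjusted p = 0.198). Mir5133 in a UTR exon of Glce had 2.49 ± 0.87 (adjusted p = 0.288) and Mir425 2.18 ± 0.94 (adjusted p = 0.396). This difference shares its Unstim libraries with the comparison of unstimulated cells, and the medians of both are not independent.

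Genes of microRNA processing were read from a list of 32 names, of which 29 had a row and 26 were tested. Averaged over exposures 1 was called (3.85%, beside 18.9% of all rows). It was Ran, the GTPase that drives export by Exportin-5 (log2 fold change 1.78, adjusted p = 6.77e-13). Under the 2-fold rule but with an adjusted p under 0.01 there were 13 other higher and 7 lower values. With Ran, 80.8% of the list had an adjusted p under 0.01, beside 66.7% of all rows. Among the higher values, Xpo5 (Exportin-5) had 0.80, Dgcr8 0.47, Drosha 0.36 and the Argonaute genes Ago1 and Ago2 0.93 and 0.44. Among the lower, Ddx5, a helicase that aids Drosha, had -0.80, Tnrc6b and Tnrc6c, which act with Argonaute in silencing, -0.70 and -0.73, and Zswim8, of target-directed microRNA decay, -0.68. Dicer1 had -0.06 (adjusted p = 0.152). No gene of the list was called between Cd and control offspring in either state, or in the difference of the responses, by limma.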

How the data were processed

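Libraries were made from polyadenylated RNA (KAPA mRNA HyperPrep). The submitters' processing notes name Subread, featureCounts and mm10, and versions and counting settings are not given in the sources used here. The values the authors deposited are log2(RPKM + 1), to which 0.0001 is added. RPKM was computed back, and whole reads were recovered from its steps (99.93% to 99.94% of each library's total). Rows were placed with GENCODE M21 and RefSeq (GRCm38.p6). limma 3.58.1 was fitted in R 4.3.3 to log2(RPKM + 0.1) over 4 group means, with a variance trend over mean log2 reads, since short rows hold few reads at a given RPKM. P-values were Benjamini-Hochberg adjusted over 12605 rows, with 4 residual degrees of freedom. The fit was tested on simulated data. Members, lists and tests were chosen with earlier results of these data known. Mir3971 and Mir5119 are named because they came as markers with the definition of this set of rows. Rows on a T cell list and the 5 highest rows are also named. So are rows with the 3 largest changes each way per comparison, ranked among rows with a mean of at least 5 reads. Not every row that these rules pick is named. Others are said to be chosen after their values. Further rows named as called or as not overlapping were also chosen after their values. Alternatives covered pseudocount, filter, trend, scaling, voom, replicate block, libraries compared and each library left out.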

Additional observations from a re-analysis of the deposited data

How the results depend on the processing

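Counts of called rows held within 1.5 times for stimulation averaged over exposures (22 to 30 with 1 library left out, beside 27). With 1 library left out they ran from 8 to 21 in control offspring, the 8 being without Ctr Stim replicate 6, and from 12 to 23 in Cd offspring, with 14 without Cd Unstim replicate 6, 12 without Cd Stim replicate 6 and 13 without Cd Stim replicate 7. For Cd against control in unstimulated cells the count was 3 with no filter, 6 with the trend over RPKM, and 0 with a filter of 1 RPKM, a filter of 5 reads, quantile normalization, voom, or only the libraries compared. It ran from 0 to 3 with 1 library left out (3 without Ctr Unstim replicate 6, 2 without Ctr Unstim replicate 7 or Cd Unstim replicate 6, and 0 without any 1 of the stimulated libraries). In stimulated cells it was 5 with no filter and 1 with no trend. For the difference of the responses it was 1 with a pseudocount of 1 RPKM, 2 with no filter, 5 with the trend over RPKM, 1 with no trend, and 0 to 1 with 1 library left out (1 without Ctr Unstim replicate 6). Processing genes called were 1 to 2 in control offspring (2 without Ctr Unstim replicate 7), 0 to 1 between exposures in unstimulated cells and 0 to 2 for the difference (1 and 2 without Cd Unstim replicate 6). The cause of these moves was not tested. The labels pair replicate numbers only by name, and deviations of equally numbered libraries correlated at 0.06 between the control and 0.01 between the Cd groups. The replicate block gave 18, 20 and 27 calls for stimulation in control, in Cd offspring and averaged, and 0 for Cd in unstimulated cells. Quantile normalization lowered the median stimulation change over all rows by -0.103 to -0.107. The r between rows and hosts ran from 0.35 to 0.46 with 1 library left out. The median row had 4.25 reads per library, and the smallest difference detectable at that depth was not tested.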

Other observations

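Of the 201 rows, 20 were under the 0.5 RPKM minimum and enter no comparison. Among them were Mir451a and Mir139 of the T cell list, with 0 to 2 reads in any library, and Mir19b-1 of the Mir17 cluster, also with 0 to 2. Replicates agreed less on these short rows than on the table as a whole: across the 181 tested rows the correlation of log2 values between the 2 libraries of a group was 0.729 to 0.830, and 0.823 to 0.919 across the 88 rows with a mean of at least 5 reads, beside 0.983 to 0.990 across all tested rows.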
